A study of Homo sapiens with 36 samples.

Results

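The members were all bead-array probes for protein parts of the splicing machinery, taken by name: the hnRNP proteins, the SR and SR-related proteins, the snRNP core proteins, the SF3 proteins of the U2 particle, and the kinases CLK1 to CLK4. Every probe of the bead table whose target name starts with HNRNP, SFRS, SRSF, SNRP or SF3, or equals one of the 4 CLK names, was taken, without use of any measured value. This gave 114 of 47323 probes, for 69 genes of the 34328 target names in the table. In the study, cigarette smoke extract (CSE), the soluble part of smoke taken up in medium, was given at 20% for 2 to 6 h to DLD-1, an epithelial line from a colorectal carcinoma, and to Jurkat, a line from a T-cell leukaemia. The groups were DLD-1 with CSE (6 arrays) and control DLD-1 (12 arrays), Jurkat with CSE (6 arrays) and control Jurkat (12 arrays). Each array held RNA of 1 sample, and each line is a single established culture line. Which exposure time applied to which sample, and whether replicates were separate cultures, is not recorded in the labels, so the p-values refer to a spread between samples that may be technical only.

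Splicing removes introns in a cycle in which snRNP particles, each a small nuclear RNA with a ring of Sm proteins and particle-specific proteins, assemble on the ends of an intron. SF3 proteins hold the U2 particle at the branch point, SR proteins bind exons and mostly favour the use of nearby splice sites, and hnRNP proteins coat the transcript and often oppose it. CLK kinases phosphorylate the serine-arginine tails of SR proteins in the nucleus, and part of the CLK1 and CLK4 RNA is itself known to be kept in the nucleus with introns.

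Between 16012 and 19131 probes were detected per array, where detected means a detection p-value under 0.05 against the negative control beads. Precision is limited by how many arrays each group has. Probes detected on at least 6 of the 36 arrays were kept, 22612 in all, and 104 of the 114 member probes, covering 67 of the 69 genes, were among them. The 10 that fell out were the only member probe each of SRSF12 and SNRNP70 and 1 probe each of SRSF10, HNRNPA1L2, HNRNPCL1, SF3A1, SNRPD2, SNRPE, SNRPN and SCAF11. By class the kept probes numbered 33 of 35 for hnRNP, 14 of 16 for canonical SR, 17 of 18 for SR-related, 18 of 22 for snRNP, 12 of 13 for SF3 and 10 of 10 for CLK. Of the 12 epithelial marker genes, 9 were detected on every DLD-1 CSE array and 8 on every DLD-1 control array (VIL1 on none), and 10 of 12 T-cell markers on every Jurkat array of either group. The mean log2 level of the epithelial markers was 4.70 to 5.19 on Jurkat CSE arrays and 4.65 to 5.72 on Jurkat control arrays, and 9.06 to 9.18 on DLD-1 CSE arrays and 8.98 to 9.17 on DLD-1 control arrays. The 2 Jurkat control arrays at the upper end, replicates 5 (5.72) and 7 (5.36), had EPCAM at 7.92 and 7.41. Replicate 7 was grouped by its title and source as Jurkat, although another label field on it reads DLD-1. Without both arrays the counts of members called with CSE in Jurkat were the same, 8 higher and 15 lower. EPCAM also read 6.24 on Jurkat control replicate 3 and 6.13, 6.16 and 6.73 on Jurkat CSE replicates 1, 5 and 6. The remaining Jurkat arrays read 4.47 to 5.71. No fit left out all arrays with raised EPCAM together. Fibroblast markers had a mean log2 level of 4.50 to 4.67 in CSE arrays and 4.44 to 4.68 in control arrays.

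Fewer of these probes passed the test with CSE in DLD-1 than in Jurkat, and every gene called in both lines was a CLK kinase or an SR-related protein. In DLD-1, 5 of 104 kept probes were higher with CSE (4.81%, against 1.7% of all 22612 kept probes) and 5 were lower (4.81%, against 2.01%), at an adjusted p under 0.05 in limma with Benjamini-Hochberg adjustment over all kept probes. In Jurkat, 8 were higher (7.69%, against 7.4%) and 15 were lower (14.4%, against 10.7%), so that the share of higher probes lay close to that of the whole array. Under median scaling in place of quantile normalization these splits were 5 higher and 3 lower in DLD-1 and 6 higher and 23 lower in Jurkat. Over all kept probes, median scaling called 560 in DLD-1, 62.3% of them higher, and 3758 in Jurkat, 12.4% of them higher. The 2 groups did not overlap for 2 member probes in DLD-1 (1.92%, against 0.504% of all kept probes) and for 6 in Jurkat (5.77%, against 2.91%). Of the 10 probes called in DLD-1, 8 were also called in Jurkat, all 8 in the same direction, and they belong to 5 genes: CLK1, CLK2, PNISR, SCAF11 and AKAP17A. How often calls recurred in both lines over all kept probes was not counted. The 8 of 10 are therefore not shown to be particular to the members. The 2 comparisons use different arrays and share no control, but a single model gave both, with the same variance estimate per probe. Over all members the median log2 difference was 0.01 in DLD-1 and -0.01 in Jurkat, beside -0.003 and 0.02 over all kept probes. In such bulk RNA a fall in the share of cells that make a transcript and a fall in its amount per cell cannot be told apart.

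By class, the CLK probes had the largest median differences, 0.26 in DLD-1 and 0.53 in Jurkat (log2 scale), with 3 higher and 1 lower of 10 in DLD-1 and 5 higher and 2 lower in Jurkat. The counts per class rest on few probes. They are read against the shares of all kept probes, 1.7% higher and 2.01% lower in DLD-1 and 7.4% and 10.7% in Jurkat. SR-related probes had medians of -0.24 in both lines, with 1 higher and 3 lower of 17 in DLD-1 and 3 higher and 4 lower in Jurkat. Canonical SR probes gave 1 higher and 1 lower of 14 in DLD-1, and 0 higher and 1 lower in Jurkat. For hnRNP probes, limma called 0 of 33 in DLD-1 (4 at an unadjusted p under 0.05) and 8 lower and 0 higher in Jurkat. None of the 18 snRNP and 12 SF3 probes passed the test in either line; at an unadjusted p under 0.05 there were 1 snRNP and 0 SF3 probes in DLD-1 and 2 of each class in Jurkat. In DLD-1, the calls leaned on single arrays: without CSE replicate 3 there were 2 higher and 2 lower members, and without CSE replicate 5 there were 3 and 3. Over all kept probes the DLD-1 calls went from 838 to 353 without replicate 3 and to 439 without replicate 5. The loss is therefore not particular to the members.

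**Figure D1:**
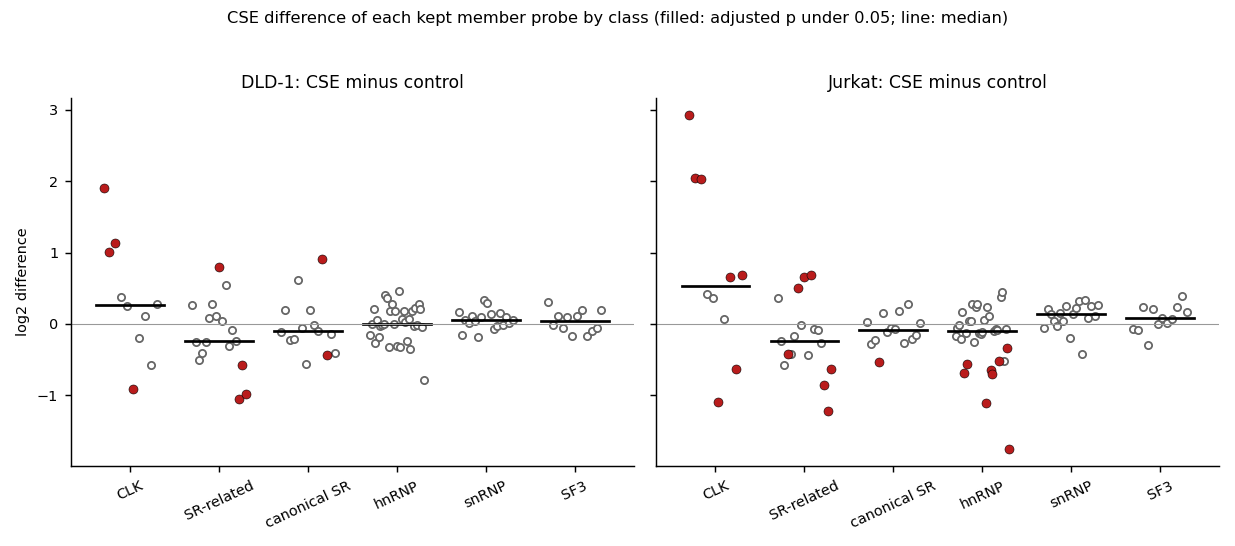
Log2 difference of CSE minus control for each of the 104 kept member probes by class, in DLD-1 (left) and Jurkat (right); filled points passed an adjusted p under 0.05 in limma and bars are class medians. Filled points lie in the CLK, SR-related and canonical SR columns in both lines and in the hnRNP column in Jurkat alone, where the 8 called probes are lower; the difference between the lines was tested probe by probe, and 1 member passed.

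CLK1, the kinase that phosphorylates SR proteins, had 3 probes, and all 3 rose in both lines. On the probe ILMN_1652790, DLD-1 CSE arrays ran from 6.24 through a median of 8.08 to 8.86 log2 intensity, against 4.64, 5.74 and 7.28 on DLD-1 control arrays. Jurkat CSE arrays ran from 7.01 through 8.88 to 9.999, against 4.81, 5.98 and 6.81 on Jurkat control arrays. The Jurkat groups did not overlap, whereas in DLD-1 1 CSE array, replicate 6, lay among the controls. The means were 7.91 ± 0.88 and 6.01 ± 1.03 in DLD-1 with CSE and control (SD, n = 6 and 12), a log2 difference of 1.90 (SE 0.41, 3.74-fold, adjusted p = 0.0035 in limma). In Jurkat they were 8.80 ± 1.09 with CSE and 5.87 ± 0.61 in controls, a log2 difference of 2.93 (SE 0.41, 7.6-fold, adjusted p = 1.1e-06).

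The other CLK1 probes moved the same way. ILMN_1679727 had 8.70, 10.05 and 10.62 on DLD-1 CSE arrays (lowest, median, highest), against 7.79, 8.995 and 9.71 on DLD-1 controls, and 10.03, 10.58 and 11.67 on Jurkat CSE arrays, against 8.10, 8.68 and 9.15 on Jurkat controls. Its log2 differences were 1.002 in DLD-1 (SE 0.25, adjusted p = 0.014 in limma) and 2.05 in Jurkat (SE 0.25, adjusted p = 1.1e-07), and again only the Jurkat groups were apart. ILMN_1689400 differed by 1.14 in DLD-1 (SE 0.28, adjusted p = 0.011) and by 2.02 in Jurkat (SE 0.28, adjusted p = 7.8e-07), with overlapping groups in both lines. The rise was numerically larger in Jurkat on all 3 probes, by 0.89 to 1.05 log2 units, but the test of that difference did not pass on any (adjusted p = 0.074 to 0.33 in limma).

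The DLD-1 rise of CLK1 differed between BeadChips and leaned on single arrays. Within BeadChips 1 and 2 the difference on ILMN_1652790 was 2.06 and 2.62. Within BeadChip 3, whose only DLD-1 CSE array is replicate 6, the 3 probes gave 0.02, -0.19 and 0.09. In Jurkat the BeadChip values of ILMN_1652790 were 2.23, 4.25 and 3.06. Leaving out DLD-1 CSE replicate 3 ended the DLD-1 call of ILMN_1679727 and ILMN_1689400 (adjusted p = 0.089 and 0.074 in limma), and without replicate 5 the call of ILMN_1689400 was lost too (adjusted p = 0.055). The DLD-1 call of ILMN_1679727 was also lost in a fit of only the 2 DLD-1 groups (adjusted p = 0.052 in limma). On the authors' normalized values the ILMN_1652790 differences were smaller, 0.96 in DLD-1 and 1.71 in Jurkat. Control DLD-1 arrays were themselves spread on this probe: replicates 1, 7, 8, 9 and 11 read 6.94 to 7.28 and the other 7 read 4.64 to 5.84. Those 5 arrays are among the 6 controls on which FOS, an immediate early gene, read at most 5.45, against 7.35 to 7.72 on the other 6, and the part of that split in the CLK1 levels was not tested.

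HSPA6, a heat-shock protein gene that is nearly silent in unstressed cells, is given beside CLK1 because it differed between CSE arrays of the same line; it was chosen after its values were seen. On Jurkat CSE arrays HSPA6 read 7.40 to 12.99, against 4.55 to 6.76 on Jurkat controls, and the array lowest for HSPA6 (replicate 3) was also lowest for CLK1, at 7.01. On DLD-1 CSE arrays HSPA6 formed a pair at 9.26 and 9.45 (replicates 4 and 6) and 4 arrays at 11.83 to 13.64, against 4.60 to 5.67 on DLD-1 controls. Replicate 6, the DLD-1 array with CLK1 at 6.24, is 1 of that pair, and replicate 4 read 7.97 for CLK1.

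**Figure D2:**
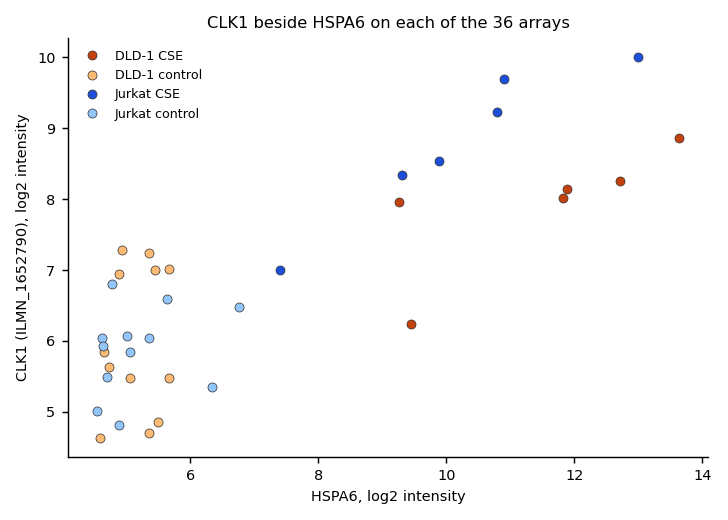
CLK1 (ILMN_1652790) against HSPA6, both as log2 intensity, with 1 point per array for the 36 arrays, coloured by group. Jurkat CSE arrays run from HSPA6 7.40 with CLK1 7.01 up to HSPA6 12.99 with CLK1 9.999, and the DLD-1 CSE array at CLK1 6.24 sits inside the control range of CLK1.

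CLK2, which phosphorylates the same tails, moved against CLK1. On ILMN_1787109 DLD-1 CSE arrays had 5.66, 6.16 and 6.70 log2 units (lowest, median, highest), against 6.57, 6.99 and 7.42 on DLD-1 controls, and Jurkat CSE arrays had 4.76, 6.35 and 6.95, against 6.68, 7.16 and 7.64 on Jurkat controls. CSE arrays were mostly below the controls, but the ranges met at their edges in both lines. The probe fell by 0.92 in DLD-1 (SE 0.22, adjusted p = 0.01 in limma) and by 1.10 in Jurkat (SE 0.22, adjusted p = 0.00029). The DLD-1 call was lost without CSE replicate 3 (adjusted p = 0.058), and the authors' normalized values gave -0.40 and -0.47. A second CLK2 probe, ILMN_2362911, fell by 0.64 in Jurkat (adjusted p = 0.036), a call lost when any of 6 single Jurkat arrays was left out (Jurkat CSE replicates 1, 4 and 5, control replicates 4, 6 and 10), and differed by -0.58 in DLD-1 (adjusted p = 0.14); the Jurkat value was -0.24 on the authors' normalized values. The Jurkat call of ILMN_2362911 was also lost with no filter on dim probes and in a fit of only the 2 Jurkat groups. The CLK2 probe ILMN_1815239 lay near background at 4.68 to 5.81 log2 units and passed in neither line.

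CLK3 rose in Jurkat on 2 of its 3 probes. ILMN_2320336 ran from 8.34 to 8.68 on Jurkat CSE arrays, against 7.28 to 8.18 on Jurkat controls, with no overlap, a difference of 0.65 (SE 0.17, adjusted p = 0.0046 in limma). ILMN_2394027 differed by 0.68 there (adjusted p = 0.0066), a call lost under median scaling (adjusted p = 0.09) and a value of 0.26 on the authors' normalized values, and no CLK3 probe passed in DLD-1 (0.11 to 0.27). CLK4, the closest relative of CLK1, had 1 probe, which differed by 0.37 in DLD-1 (adjusted p = 0.25) and by 0.41 in Jurkat (adjusted p = 0.079). All 10 CLK probes were read on the same arrays, and where each probe lies on its transcript was not analysed here.

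**Figure D3:**
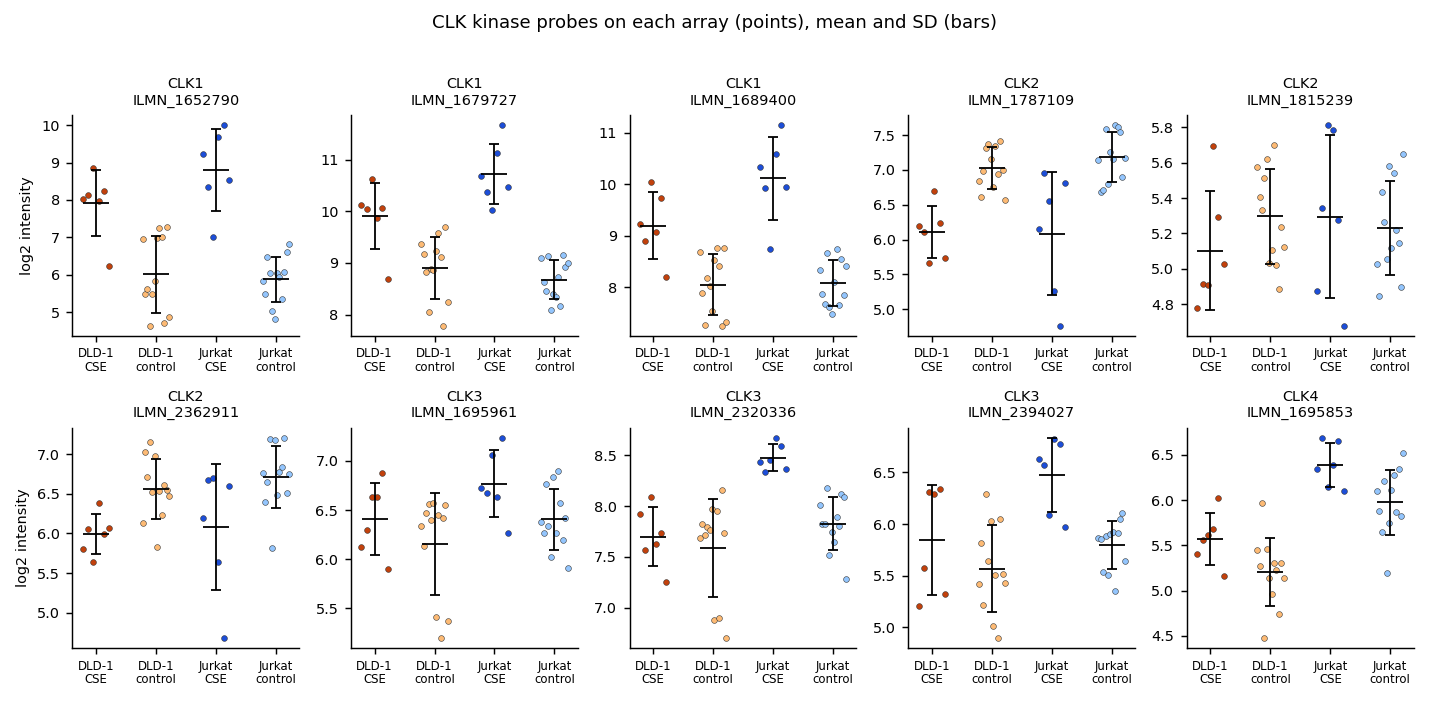
Log2 intensity of the 10 kept CLK probes on each of the 36 arrays; points are arrays, bars are group means with SD, and groups run DLD-1 CSE, DLD-1 control, Jurkat CSE, Jurkat control. On CLK1 the CSE means lie above the control means in both lines, with full separation in Jurkat on ILMN_1652790 and ILMN_1679727 and 1 low DLD-1 CSE array (6.24 on ILMN_1652790). On ILMN_1787109 of CLK2 the CSE means lie below the control means, with overlapping arrays.

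The stretches before the start sites of 4 of the 5 genes called in both lines are shown, CLK1 up and CLK2, PNISR and SCAF11 down. The remaining gene, AKAP17A, rose in both lines, and its stretch was not searched. Each is the 250 bases upstream of a RefSeq start on GRCh38.p14, 5′ to 3′ on the gene's strand (for CLK1 the more upstream of 2 listed starts). Capitals mark matches to 6 short motifs, searched on both strands. These were the heat-shock element written as GAANNTTC, the AP-1 site written as TGACTCA and the full cAMP response element written as TGACGTCA. A shorter form of the last, its opening letters TGACG, was searched as well, with the antioxidant element written as TGACNNNGC and the box known by its letters as CCAAT.
CLK1, chr2:200864659-200864908, minus strand: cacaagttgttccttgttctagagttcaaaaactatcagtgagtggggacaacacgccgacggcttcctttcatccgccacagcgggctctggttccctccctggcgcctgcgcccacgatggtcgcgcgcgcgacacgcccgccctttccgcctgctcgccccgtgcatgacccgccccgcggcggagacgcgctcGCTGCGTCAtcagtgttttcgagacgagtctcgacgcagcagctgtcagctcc
CLK2, chr1:155273505-155273754, minus strand: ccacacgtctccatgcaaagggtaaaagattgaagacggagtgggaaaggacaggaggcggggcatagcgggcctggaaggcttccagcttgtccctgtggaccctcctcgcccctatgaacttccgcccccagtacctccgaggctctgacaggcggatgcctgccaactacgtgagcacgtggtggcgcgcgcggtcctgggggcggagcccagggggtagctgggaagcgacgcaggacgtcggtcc
PNISR, chr6:99425309-99425558, minus strand: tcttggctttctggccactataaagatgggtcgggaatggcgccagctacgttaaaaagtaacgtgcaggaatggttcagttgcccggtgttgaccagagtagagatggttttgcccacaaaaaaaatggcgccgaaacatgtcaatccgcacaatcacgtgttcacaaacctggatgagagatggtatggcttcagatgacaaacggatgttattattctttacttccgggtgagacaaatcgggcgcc
SCAF11, chr12:45990575-45990824, minus strand: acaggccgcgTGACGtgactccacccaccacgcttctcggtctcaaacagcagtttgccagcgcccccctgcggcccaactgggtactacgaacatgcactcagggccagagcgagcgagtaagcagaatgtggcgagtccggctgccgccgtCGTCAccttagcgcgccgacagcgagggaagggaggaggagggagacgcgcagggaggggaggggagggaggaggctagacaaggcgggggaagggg
The CLK1 stretch held 1 match to the short TGACG motif and 1 to the antioxidant element, which overlap, with upstream ends 49 and 53 bases before the start. The short motif occurred in 21.2% and the antioxidant element in 10.9% of all 35116 upstream stretches of the same length. SCAF11 held the short motif at 2 places, 240 and 97 bases upstream. No searched motif was matched in the CLK2 and PNISR stretches. The heat-shock element, AP-1 site, cAMP response element and CCAAT box, found in 5.78%, 4.2%, 1.65% and 32.0% of all stretches, were matched in none of the 4 windows, which says only that these letters are not in these windows.

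Among the SR-related proteins, PNISR, a serine-arginine-rich nuclear protein of little known function listed on the array as SFRS18, fell in both lines on both of its probes. ILMN_3224934 had 7.48, 8.16 and 8.34 log2 units on DLD-1 CSE arrays (lowest, median, highest), against 8.57, 9.14 and 9.89 on DLD-1 controls. In Jurkat the CSE arrays had 8.12, 8.25 and 8.72, against 8.73, 9.23 and 9.62 in controls. Every CSE array lay below every control array of its line, in both lines, which was so for 1 further member, SCAF11. The differences were -1.06 in DLD-1 (SE 0.16, adjusted p = 5.9e-05 in limma) and -0.86 in Jurkat (SE 0.16, adjusted p = 0.00013). ILMN_3299558 differed by -0.98 (adjusted p = 0.00026) and -0.63 (adjusted p = 0.0066), with overlapping ranges. These 4 PNISR calls held without any single array and under every alternative fitted to all 3 BeadChips that tested the probe. The fit of 1 probe per gene did not include ILMN_3299558. The within-BeadChip differences were all negative, -0.53 to -1.17.

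SCAF11, an SR-related factor named SFRS2IP on the array for its binding to SRSF2, fell on ILMN_3251511. DLD-1 CSE arrays ran from 8.43 through 8.68 to 8.79, against 8.83, 9.15 and 9.85 on DLD-1 controls, and Jurkat CSE arrays from 7.74 through 7.86 to 8.29, against 8.70, 9.13 and 9.53 on Jurkat controls. The groups did not overlap in either line, although in DLD-1 they nearly touched. The differences were -0.57 in DLD-1 (SE 0.14, adjusted p = 0.011 in limma) and -1.22 in Jurkat (SE 0.14, adjusted p = 2.2e-08), and the larger Jurkat fall gave the only member called in the test of the difference between lines (0.65, SE 0.20, adjusted p = 0.042). That call was lost when any of 18 of the 36 arrays was left out, with no filter on dim probes, and on the authors' normalized values (0.46, adjusted p = 0.069). The DLD-1 call was lost without CSE replicate 3 or 5 and under median scaling (adjusted p = 0.13). The second kept SCAF11 probe, ILMN_2069593, read 0.05 in DLD-1 and -0.44 in Jurkat (adjusted p = 0.96 and 0.052), so the gene's probes disagree.

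AKAP17A, a protein kinase A anchoring and splicing factor listed as SFRS17A, rose. On ILMN_1807737 DLD-1 CSE arrays had 7.89 to 8.53 (median 8.38), against 6.78 to 7.95 (median 7.60) on DLD-1 controls, and Jurkat CSE arrays 7.64 to 8.71 (median 8.27), against 7.01 to 8.13 (median 7.64) on Jurkat controls. The ranges overlapped in both lines and the differences were 0.80 (SE 0.16, adjusted p = 0.0017 in limma) and 0.65 (SE 0.16, adjusted p = 0.0027); the authors' normalized values gave 0.53 in DLD-1. Its second probe rose by 0.69 in Jurkat (adjusted p = 0.0048) and differed by 0.54 in DLD-1 (adjusted p = 0.082). TRA2B, a partner of SR proteins that binds exonic enhancers, rose by 0.51 in Jurkat (SE 0.15, adjusted p = 0.011, lost under median scaling at 0.058). One of 3 SUGP2 probes fell by 0.42 in Jurkat (adjusted p = 0.04; this probe lies outside the rule for named probes). The remaining SR-related probes, of CLASRP, SCAF4, SFSWAP, SREK1 and SREK1IP1, passed in neither line.

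**Figure D4:**
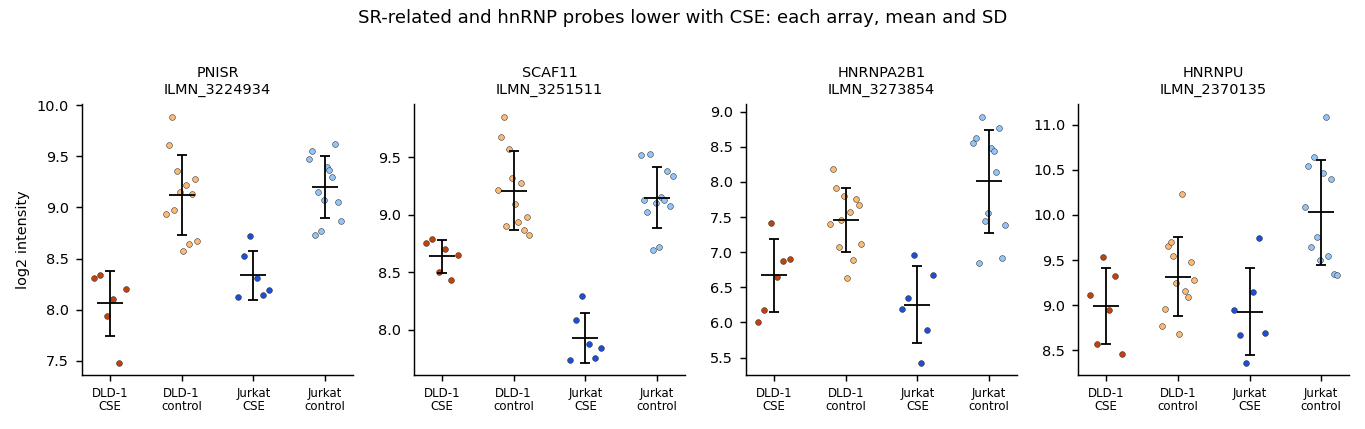
Log2 intensity on each of the 36 arrays of 1 probe each of PNISR, SCAF11, HNRNPA2B1 and HNRNPU, the probe with the larger Jurkat fall for the last 2 genes; points are arrays and bars are group means with SD. PNISR and SCAF11 CSE arrays lie below all control arrays in both lines, while HNRNPA2B1 and HNRNPU ranges overlap.

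Of the 14 kept canonical SR probes, 2 passed in DLD-1 and 1 in Jurkat, with differences from -0.56 to 0.91 in DLD-1 and from -0.53 to 0.28 in Jurkat. Of all kept probes, 1.7% were higher and 2.01% lower in DLD-1, and 7.4% and 10.7% in Jurkat. SRSF3, the smallest of them, had 6.46, 6.91 and 7.26 on DLD-1 CSE arrays for ILMN_2135232 (lowest, median, highest), against 4.75, 6.01 and 6.73 on DLD-1 controls, a rise of 0.91 (SE 0.25, adjusted p = 0.026 in limma) with overlapping ranges. The call was lost without any one of DLD-1 CSE replicates 3, 4, 5 or 6, the authors' normalized values gave 0.37, and its other probe ILMN_1723212 differed by 0.61 (adjusted p = 0.14). SRSF4 fell by 0.44 in DLD-1 (SE 0.13, adjusted p = 0.038), with CSE arrays at 9.81 to 10.43 and controls at 10.02 to 11.11, a call lost under median scaling and when any of 8 arrays was left out (CSE replicates 3, 4 and 5, control replicates 2, 3, 5, 6 and 10). In Jurkat, SRSF6 fell by 0.53 (SE 0.18, adjusted p = 0.038), with CSE arrays at 10.63 to 11.44 and controls at 11.18 to 12.37, and lost the call without CSE replicate 1, 5 or 6, without control replicate 2, 5 or 7, and without control replicates 5 and 7 together (-0.43, adjusted p = 0.1). The SRSF3 and SRSF4 calls were also lost in a fit of only the 2 DLD-1 groups. With no filter on dim probes the SRSF3 and SRSF6 calls were lost too. The other canonical SR probes, among them SRSF1, SRSF2, SRSF5, SRSF7, SRSF9, SRSF10 and SRSF11, passed in neither line.

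The hnRNP falls were in Jurkat. HNRNPA2B1, which binds and helps carry and splice RNA, had 5.43, 6.27 and 6.96 on Jurkat CSE arrays for ILMN_3273854 (lowest, median, highest), against 6.84, 8.29 and 8.93 on Jurkat controls, with a small overlap. The difference was -1.76 (SE 0.27, 3.38-fold, adjusted p = 6.8e-06 in limma), or -0.97 on the authors' normalized values. In DLD-1 the same probe had 6.00, 6.76 and 7.41 with CSE and 6.63, 7.52 and 8.19 in controls, a difference of -0.79 that did not pass (adjusted p = 0.1). The other member probe, ILMN_3178792, had 9.69, 9.75 and 10.07 on Jurkat CSE arrays, against 9.88, 10.48 and 11.12 on controls, a fall of 0.70 (SE 0.13, adjusted p = 0.00016). Another probe of this gene, ILMN_2369682, whose older target name HNRPA2B1 puts it outside the members, differed by -0.08 in Jurkat (adjusted p = 0.71), so the size of the fall depended on the probe.

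HNRNPU, a scaffold protein of chromatin and nascent RNA, had 8.36, 8.82 and 9.74 on Jurkat CSE arrays for ILMN_2370135, against 9.33, 9.92 and 11.09 on controls. It fell by 1.10 (SE 0.23, adjusted p = 0.00056 in limma), with overlapping ranges, and differed by -0.33 in DLD-1 (adjusted p = 0.57). The other called hnRNP probes in Jurkat were a second one of HNRNPU (detected on 2 of 6 Jurkat CSE and 11 of 12 Jurkat control arrays) and 1 each of HNRNPA0, HNRNPH1, HNRNPH3 and HNRNPR, with differences of -0.35 to -0.68. HNRNPR, chosen here after its values were seen, was the only hnRNP probe without overlap: ILMN_3177285 ran from 11.02 to 11.50 on Jurkat CSE arrays and from 11.56 to 12.36 on controls, a fall of 0.65 (adjusted p = 0.0021), while it differed by 0.03 in DLD-1 (adjusted p = 0.97). The difference between the lines did not pass for any of the 33 hnRNP probes (smallest adjusted p = 0.057). Of 19 kept probes that carry older HNRP names and so fall outside the rule, 5 were lower and 0 higher in Jurkat, where 10.7% of all kept probes were lower and 7.4% higher, and 0 passed in DLD-1. The member probes of HNRNPA1, HNRNPAB, HNRNPC, HNRNPD, HNRNPK, HNRNPL and HNRNPM passed in neither line; an older-named HNRNPK probe, ILMN_2378048, is 1 of the 5 lower in Jurkat (-0.46, adjusted p = 0.037).

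For snRNP proteins, which include the Sm ring, the CSE differences ran from -0.19 to 0.34 in DLD-1 (median 0.06) and from -0.43 to 0.33 in Jurkat (median 0.14), with a median SE of 0.15. Positive differences numbered 13 of 18 in DLD-1 and 14 of 18 in Jurkat. Over all 22612 kept probes 11146 were positive in DLD-1 and 12149 in Jurkat. The 18 probes are not separate genes, as 5 of the 12 snRNP genes have several kept probes. SF3 proteins ran from -0.17 to 0.30 in DLD-1 (median 0.05) and from -0.30 to 0.39 in Jurkat (median 0.08). The smallest adjusted p-values in limma were 0.18 in DLD-1 and 0.051 in Jurkat for snRNP probes, and 0.39 in DLD-1 and 0.079 in Jurkat for SF3 probes. SNRPG, an Sm ring protein, differed by 0.01 in DLD-1 and 0.04 in Jurkat. SF3B1, the SF3 subunit that contacts the branch point, differed by 0.11 and 0.08 on its probe ILMN_1706075. Both were chosen after their values were seen. The differences of the 3 kept SF3B1 probes spanned 0.31 in DLD-1 and 0.17 in Jurkat. In DLD-1 the SF3B1 probe ILMN_1674780 had the largest SF3 difference, 0.30, so ILMN_1706075 does not stand for the gene.

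More members differed between the untreated lines than with CSE in either line, as was so for the whole array. Over all kept probes 13556 were called between the control lines, against 838 with CSE in DLD-1 and 4096 with CSE in Jurkat. The members departed from all kept probes in the split between lower and higher. Between control DLD-1 and control Jurkat, 61 of 104 member probes were lower in DLD-1 (58.7%, against 32.3% of all kept probes) and 8 were higher (7.69%, against 27.6%), with a median of -0.52 over members and -0.04 over all kept probes. Under median scaling 67 were lower and 4 higher, while 13504 of all kept probes were called, 41.4% of them higher. By class, 16 of 18 snRNP probes were lower and 0 higher in DLD-1 (median -0.76), 7 of 12 SF3 probes were lower and 2 higher (median -0.77), and 23 of 33 hnRNP probes were lower and 4 higher (median -0.55). Canonical SR probes gave 8 lower and 1 higher of 14 (median -0.48), SR-related probes 6 and 1 of 17 (median -0.13), and CLK probes 1 and 0 of 10 (median -0.15). Each line is 1 culture line, so the difference cannot be told apart from any other difference between them.

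**Figure D5:**
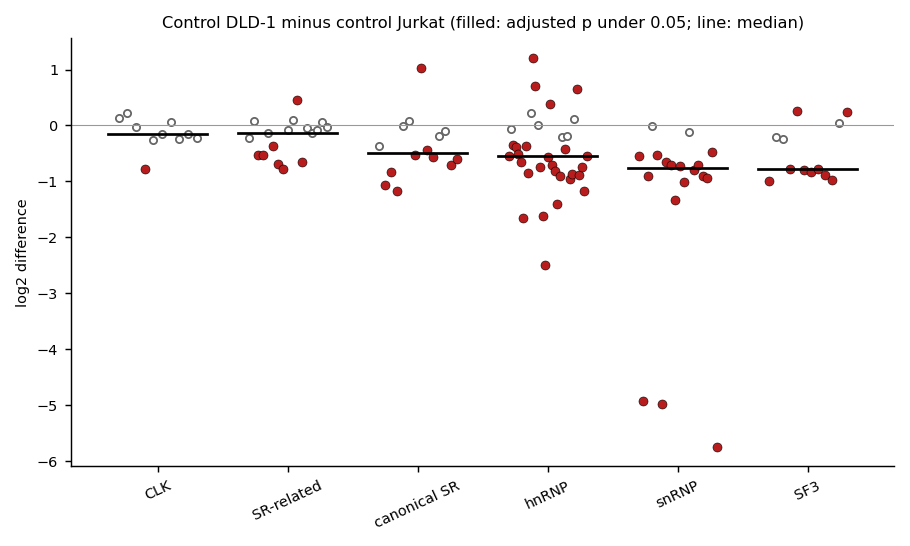
Log2 difference of control DLD-1 minus control Jurkat for each of the 104 kept member probes by class; filled points passed an adjusted p under 0.05 in limma and bars are class medians. Most snRNP, SF3, hnRNP and canonical SR points lie below 0, and the 3 SNRPN probes lie lowest, of which ILMN_2372082 was detected on 0 and ILMN_1693341 on 2 of 12 DLD-1 controls, so that their plotted values are fitted and not measured sizes.

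SNRPN, the imprinted gene of an Sm protein related to SNRPB and abundant in neurons, stood apart. ILMN_2372082 had 4.31, 4.41 and 4.87 log2 units on control DLD-1 arrays (lowest, median, highest), where it was detected on 0 of 12, and 9.82, 10.17 and 10.56 on control Jurkat arrays, where it was detected on all 12. After the background correction used here it was therefore at least 35-fold lower in DLD-1, the bound taken from the dimmest detected signals. The authors' normalized values gave a smaller fitted difference for this probe, -3.35, so the bound does not carry over to them. ILMN_1693341, detected on 2 of the 12 DLD-1 controls, averaged 4.70 ± 0.33 in DLD-1 and 9.68 ± 0.23 in Jurkat (SD, n = 12 each). As most DLD-1 values of that probe are not above background, its fitted difference (-4.97, or -2.78 on the authors' normalized values) is not a measured size. ILMN_1656537 was chosen because all 12 arrays of both control groups detected it. It had 5.05, 5.39 and 5.98 on control DLD-1 arrays, against 9.87, 10.51 and 10.73 on control Jurkat arrays. The log2 difference was -4.92 (SE 0.12, adjusted p = 1.3e-31 in limma). Its DLD-1 levels are dim too, so this size also rests on the background correction used here. For this probe no difference on the authors' normalized values is given. With CSE none of the 3 kept SNRPN probes passed in either line (smallest adjusted p = 0.051 in limma, in Jurkat). SNRPB, which supplies the same ring position, was lower in DLD-1 too, by 0.70 and 1.02 on its 2 probes (adjusted p = 2.4e-06 and 1.2e-09).

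Of the hnRNP member probes, the one of HNRNPC, a binder of uridine tracts, differed most between the lines. ILMN_2334587 had 6.41, 6.81 and 7.73 on DLD-1 controls, against 8.65, 9.49 and 10.15 on Jurkat controls, without overlap, a difference of -2.49 (SE 0.16, adjusted p = 4.6e-17 in limma). The HNRNPC probe with the older name, ILMN_1695588, differed by -0.24 (adjusted p = 0.1), so the probes disagree. HNRNPD, known for binding AU-rich RNA, differed by -1.66 on ILMN_1751368 (adjusted p = 3.6e-19), also without overlap. HNRNPA1, a binder of splicing silencers, was higher in DLD-1 on ILMN_1815882 by 1.21 (adjusted p = 1.3e-08; 0.55 on the authors' normalized values), but differed by -0.06 on its other probe (adjusted p = 0.86). HNRNPUL2 was higher in DLD-1 by 0.71 on ILMN_2072091 (adjusted p = 2.2e-07) but differed by -0.04 on the older-named ILMN_1810327 (adjusted p = 0.7). HNRNPK had probes called in opposite directions, -0.43 on ILMN_3179371 and 0.65 on ILMN_3260017 (adjusted p = 0.00026 and 4.6e-05), so no direction is given for it.

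In the other classes SRSF6 and SRSF10 were lower in DLD-1 by 1.17 and 1.07 (adjusted p = 7.6e-09 and 2.5e-13 in limma), both without overlap, and SRSF8 was higher by 1.03 (adjusted p = 1.6e-09) with 9.41 to 10.88 on DLD-1 controls and 8.93 to 9.35 on Jurkat controls. SUGP2 and TRA2B were lower by 0.78 and 0.69 (adjusted p = 4.9e-09 and 3.1e-06). Among SF3 proteins SF3B1 and SF3B2 were lower by 0.999 and 0.97 (adjusted p = 3.9e-08 and 3.9e-11; for SF3B1 -0.33 on the authors' normalized values), while both probes of SF3B6, which touches the branch point region, were higher by 0.27 and 0.24, calls lost under median scaling (0.05 and 0.04, adjusted p = 0.72 and 0.82). Of the kinases, only CLK4 differed, by -0.77 (SE 0.14, adjusted p = 3.9e-06; -0.24 on the authors' normalized values), with DLD-1 controls at 4.48 to 5.97 and Jurkat controls at 5.20 to 6.52.

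The test of the CSE effect in DLD-1 minus that in Jurkat called 1 of 104 members (0.962%, against 5.6% of all kept probes). This was SCAF11. Under median scaling it called 6, all with the higher value in DLD-1. Over all kept probes it then called 1693, 92.6% of them in that direction, so the direction is not particular to the members.

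Splicing genes outside the naming rule, in 8 lists of 125 genes of which 119 had kept probes, gave 8 higher and 4 lower of 181 probes in DLD-1 (4.42% and 2.21%, against 1.7% and 2.01% of all kept probes) and 17 higher and 31 lower in Jurkat (9.39% and 17.1%, against 7.4% and 10.7%). The counts per list below rest on few probes and are read against the same shares. Of the 12 SR partners and kinases with kept probes (24 probes), 2 probes were higher and 1 lower in DLD-1, and 3 higher and 9 lower in Jurkat. CCNL1, a cyclin found with SR proteins in nuclear speckles, rose on both probes by 1.25 and 1.19 in DLD-1 (adjusted p = 6e-06 and 0.00012 in limma) and by 1.15 and 0.94 in Jurkat (adjusted p = 2.4e-06 and 0.00035). SRRM2, a scaffold of the speckles, fell by 0.53 in DLD-1 and by 0.61 in Jurkat (adjusted p = 0.00034 and 6.4e-06). RBM39, a U2AF-related splicing regulator, rose by 1.11 in DLD-1 and 0.94 in Jurkat on ILMN_2411963 (adjusted p = 0.00099 and 0.0011). Its probe ILMN_1684549 differed by 0.33 in DLD-1 and 0.65 in Jurkat (adjusted p = 0.31 and 0.0039 in limma). PTBP3, a relative of the polypyrimidine tract binder, fell by 0.47 in DLD-1 and by 1.28 in Jurkat on ILMN_1768197 (adjusted p = 0.049 and 1e-08). Its probe ILMN_2117223 differed by -0.42 in DLD-1 and -1.20 in Jurkat (adjusted p = 0.09 and 6.1e-08 in limma). CELF2, a regulator of T-cell splicing, fell by 1.20 in Jurkat (adjusted p = 5.8e-10). RBM39, PTBP3 and CELF2 are in the list of other regulators. That list gave 3 higher and 2 lower of 53 probes in DLD-1 and 7 and 13 in Jurkat. Proteins of 3' splice site recognition gave 0 calls of 12 probes in DLD-1 and 3 lower in Jurkat, among them DDX46 (-1.12, adjusted p = 7.1e-08). The LSm ring, the relative of the Sm ring that binds U6, gave 0 calls of 10 probes in either line. All 10 were lower in control DLD-1 than in control Jurkat, as were 32.3% of all kept probes. Proteins that assemble the Sm ring gave 0 calls of 25 probes in DLD-1 and 2 higher and 1 lower in Jurkat. The U1, tri-snRNP and minor spliceosome list gave 1 lower of 28 probes in DLD-1 (SNRNP70, -0.40, adjusted p = 0.038) and 3 higher and 3 lower in Jurkat. The other SNRNP70 probes of this list differed by -0.23 and -0.30 in DLD-1 (adjusted p = 0.37 and 0.59 in limma). The Prp19 complex and catalytic factors gave 2 higher of 25 in DLD-1, PRPF18 (0.90, adjusted p = 0.015) and CRNKL1 (0.47, adjusted p = 0.03), and 1 higher and 2 lower in Jurkat. In the exon junction complex 1 of 4 probes was higher in each line, EIF4A3 in DLD-1 (0.39, adjusted p = 0.014) and CASC3 in Jurkat (0.35, adjusted p = 0.034).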

How the data were processed

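The input was the authors' deposited bead table of average intensity per probe, not normalized per the file headers, with a deposited detection p-value per probe and array. The authors' deposited series table, a second set of intensity values with near-equal distributions over arrays, served as an alternative. For the software that made them, the sources used here name none. Intensities were background-corrected in limma through the detection p-values (offset 16), quantile-normalized and put on the log2 scale (limma 3.58.1, R 4.3.3), so the deposited values enter as log2 after these steps. A probe was kept if 6 or more arrays had a detection p-value under 0.05 for it. One linear model with 4 group means over 36 arrays gave all contrasts (lmFit, eBayes), with Benjamini-Hochberg adjustment over 22612 probes, and was tested on simulated data. Arrays were grouped by title and source labels, and replicate numbers only name arrays.

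Named probes were all CLK probes, per class and line the 3 called higher and 3 called lower probes with the smallest adjusted p, per class the 2 largest called differences in each direction between control lines, the 6 largest called differences between CSE effects, and genes with opposite calls. For the other lists, the 2 called probes with the smallest adjusted p per line, direction and list could be named. Members and lists were chosen with earlier results of these data known. Of the member probes, 77 carry a current symbol and 37 an older one. Related transcripts can share probe signal. The alternatives were the deposited normalized values, median scaling, offset 50, other filters, BeadChip as a block, array weights, fits of 2 groups, 1 probe per gene, each BeadChip alone and each array left out.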

Additional observations from a re-analysis of the deposited data

Results flagged for a closer look

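For CLK1, DLD-1 CSE replicate 6 stood far from the other 5 arrays of its group on ILMN_1652790. It read 6.24 log2 units, with the nearest other array at 7.97 and the highest at 8.86, so the gap was 0.661 of the group's range. This was 1 of 44 combinations of probe and group that were checked, and chance alone marks about 1 in 20. It is the only DLD-1 CSE array on BeadChip 3.

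The fall of SCAF11 with CSE was larger in Jurkat than in DLD-1 on ILMN_3251511. The tested difference of the effects, DLD-1 minus Jurkat, was 0.649 log2 units (SE 0.196, adjusted p = 0.042 in limma). The call was lost on the authors' normalized values (adjusted p = 0.069), with no filter on dim probes and in 18 of 36 fits without 1 array. The other SCAF11 probe, ILMN_2069593, differed by 0.48 (adjusted p = 0.22).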

How the results depend on the processing

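The counts of called members were 5 higher and 5 lower in DLD-1, 8 higher and 15 lower in Jurkat, 1 for the difference between lines and 69 between control lines. Median scaling gave 3 lower in DLD-1, 23 lower in Jurkat and 6 for the difference; under it the median of the difference over all probes was 0.116, against -0.0179 after quantile normalization. The difference count was 2 on the authors' normalized values, 3 with offset 50, 0 with no filter and 2 with BeadChip as a block. Fits of only 2 groups gave 3 higher in DLD-1, and the brightest probe per gene, which tests fewer probes, gave 1 higher in DLD-1 and 4 higher in Jurkat. Within BeadChip 1 the counts were 0 higher and 0 lower in DLD-1, 3 higher and 5 lower in Jurkat, and 0 for the difference. Over all kept probes that fit called 33 in DLD-1, 1158 in Jurkat and 7 for the difference. BeadChip 2 gave 2 lower in DLD-1, where 779 of all kept probes were called. BeadChip 3 gave 4 higher and 2 lower in Jurkat, where 655 of all kept probes were called. Counts that rest on a single CSE array of a line are left out. The low counts are not shown to be particular to the members. These fits use fewer arrays, and where a BeadChip holds 1 CSE array of a line, that array is assumed to vary like the others. CLK1 ILMN_1679727 turned to -0.19 (-0.1889) in DLD-1 within BeadChip 3. Leaving out 1 array at a time gave 2 to 6 higher and 2 to 6 lower in DLD-1, 8 to 10 higher and 11 to 17 lower in Jurkat, 0 to 2 for the difference and 67 to 72 between control lines; normalization was not repeated. Over all kept probes the fits without 1 array called 353 to 1107 in DLD-1 and 3128 to 4153 in Jurkat. The cause of these changes beyond the smaller fits was not tested. Of the 10 DLD-1 and 23 Jurkat calls, 8 and 21 were still called under median scaling, and 10 and 23 on the authors' normalized values. Without Jurkat control replicates 5 and 7, a setting chosen after seeing the data, 21 of 23 Jurkat calls were still called. No paired analysis was possible because the replicate numbers were given in accession order and pair no samples.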

Other observations

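Across the 6 Jurkat CSE arrays the levels of CLK probes were set against HSPA6, a relation chosen after the values were seen, with 10 probes tested by exact two-sided permutation. The 3 CLK1 probes had Spearman's rho of 1 (p = 0.0028, adjusted p = 0.007) and Pearson's r of 0.961, 0.954 and 0.98 (p = 0.0042, adjusted p = 0.014). Without the 2 arrays farthest from the median of HSPA6, r was 0.953, 0.857 and 0.926. CLK2 ILMN_2362911 had rho of -1 (p = 0.0028, adjusted p = 0.007) and r of -0.885 (p = 0.0069, adjusted p = 0.017), or -0.88 without those arrays. For the other 6 probes the adjusted p-values were 0.1 or above. The BeadChips hold 3, 1 and 2 of these arrays, too few for values within a BeadChip. In DLD-1, HSPA6 read 9.26 and 9.45 on CSE replicates 4 and 6 and 11.83 to 13.64 on the other CSE arrays, and the relation was not tested. Jurkat CSE arrays had gaps in HSPA6 too, between 7.40 and 9.32 and between 10.90 and 12.99, so r and rho there rest on unevenly spread arrays.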
